A study of Mus musculus with 6 samples.

Results

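Integrins, laminins, nidogens and the heparan sulfate proteoglycans perlecan and agrin form the contact between a cell and its basement membrane. The genes described here were chosen by symbol alone, as the integrin alpha and beta chains, the laminin alpha, beta and gamma chains, Nid1, Nid2, Hspg2 and Agrn. Of the 55487 gene identifiers in the deposited table, 41 met this rule, namely 18 integrin alpha chains, 8 integrin beta chains, 11 laminin chains, 2 nidogens and 2 proteoglycans. They were measured by bulk RNA-sequencing in 6 cultures from the skin of C57BL/6 mice without a further genotype, of which 3 received medium at 5 mmol/L glucose (normal glucose) and 3 at 20 mmol/L (high glucose), each during 48 hours. The cells came from pools of 4 to 6 mice aged 2 to 3 months and were enriched with magnetic beads against CD31, a surface protein of endothelial cells (ECs). The study's figure legends state the replication as groups of mice, whereas no label ties a culture to its own pool. P values therefore measure the spread between these cultures, and whether it lies between animals or is technical cannot be told apart. The comparison asks how the receptor and matrix genes of these cells differ after exposure to a glucose level that mimics hyperglycemia.

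An integrin is a heterodimer of 1 alpha and 1 beta chain that spans the plasma membrane, binds matrix or another cell outside, and couples to actin inside through talin and kindlin. Laminins are cross-shaped trimers of an alpha, a beta and a gamma chain that polymerize on the cell surface. Nidogens bridge this laminin network to the network of type IV collagen, and perlecan and agrin bind both laminin and growth factors. In vessels, laminins with the alpha4 or alpha5 chain are the usual endothelial products, whereas integrin alpha6 beta4 is typical of keratinocytes.

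The labelled cell type was checked against its markers before the results. Pecam1, which encodes CD31, had 12 to 19 counts with normal glucose, against 9 to 18 with high glucose. Of 20 endothelial markers, Sox17 had no counts, 13 passed the filter on low counts, and the summed level of the list was 221 to 248 CPM (counts relative to the library total) with normal glucose, against 201 to 206 with high glucose. Cdh5, which encodes VE-cadherin, had 231 to 242 counts with normal glucose, against 91 to 130 with high glucose. Of the tested endothelial markers, Cdh5, Flt1 and Egfl7 fell, by 1.03, 0.53 and 0.23 on the log2 scale, and Tek, Plvap and Erg rose, by 0.66, 0.44 and 1.45. Together these were 46.2% of the tested endothelial markers, where 31.4% of all tested genes were called. Eng at 155 and Flt1 at 55.3 normalized CPM in normal glucose made up most of the sum, Eng being named after its value was seen. Erg, with 2 to 15 counts per culture, kept its call in 1 of 6 fits that left out a library, the one without normal glucose replicate 2, and Egfl7 in 2, those without normal glucose replicate 1 or 2 (adjusted P up to 0.139 and 0.098 in the others). The 17 fibroblast markers summed to 42267 to 45629 CPM with normal glucose, against 74078 to 79015 with high glucose. All 17 were tested, and 11 rose while 5 fell, or 94.1% against 31.4% of all tested genes. The collagen genes Col1a1, Col1a2 and Col3a1, named after their values were seen, made up most of that sum. Their mean normalized CPM were 7771, 10558 and 12421 with normal glucose, against 13139.7, 14743 and 32515 with high glucose. The 12 pericyte and smooth muscle markers summed to 1207 to 1292 CPM with normal glucose, against 1090.3 to 1160.3 with high glucose. Pecam1 was therefore near 0 in libraries labelled endothelial, and the samples are called cultures below. Library totals lay between 120192466 and 146881356 counts, and the 10 most abundant genes held 7.86% to 8.18% of the counts with normal glucose, against 11.4% to 11.6% with high glucose. In bulk samples, fewer cells of a type and less RNA per cell cannot be told apart.

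At the level of transcripts per length, a few chains dominated each family. Levels of different genes are compared here as normalized CPM per kb of exon, with CPM scaled by edgeR's TMM factors. The summed marker lists and the log2 ratios within a culture are not corrected for length. Among integrin beta chains, Itgb1 stood at 262 ± 6.15 (SD, n = 3) CPM per kb in normal glucose, followed by Itgb5, the partner of alphav in a vitronectin receptor, at 124 ± 5.18 and by Itgb3 at 11.4 ± 0.457. The fibronectin receptor chain Itga5 led the alpha chains at 53.8 ± 2.01 CPM per kb, ahead of Itga11 at 35.3 ± 5.43 and Itgav at 18.6 ± 1.44. The beta chains together reached 399.9 ± 6.79 CPM per kb and the alpha chains 129 ± 9.43. Lama4, Lamb1 and Lamc1, which together can form 1 laminin of vessel walls, were each the highest of their family, at 32.5 ± 3.9, 76.5 ± 1.91 and 49.3 ± 4.47 CPM per kb. Lama5, the other endothelial alpha chain, lay at 0.173 ± 0.0287.

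**Figure D1:**
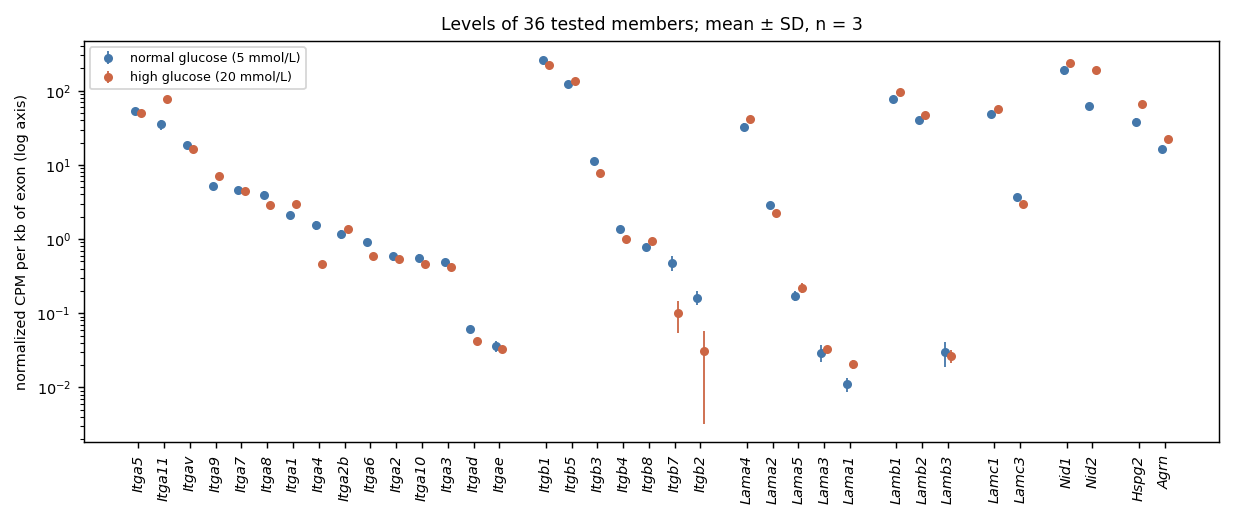
Level of 36 tested members in normalized CPM per kb of exon (log axis), mean ± SD of 3 cultures per group, by family. Itgb1, Nid1 and Itgb5 stand highest in normal glucose, and Lama1, at 0.011 CPM per kb, stands lowest.

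After the filter on low counts, 37 of the 41 members were tested with edgeR's quasi-likelihood test, with P values adjusted over all 19015 tested genes by the Benjamini-Hochberg method. At an adjusted P value under 0.05, 23 members were called, 12 higher and 11 lower in high glucose, against 31.4% of all tested genes. In the separate directions, 16.9% of all tested genes were higher and 14.5% lower. Scaling by library size alone, which moved the median change over all genes, on the log2 scale, from 0.0062 to -0.109, gave 8 higher and 15 lower members, and 72.9% of its calls over all genes were lower against 46.2% with TMM. Of the 23 members whose average log2 CPM was 3 or more, 18 were called, where 38.2% of all genes at that level were. Among the 22 tested integrins, 8 fell and 3 rose, with a median log2 fold change of -0.21. Among the 11 laminins, 5 rose and 3 fell, with a median of 0.21, and all 4 nidogen and proteoglycan genes rose, with a median of 0.62. The median over all tested genes was 0.0062. With library size scaling, 12 integrins fell and 3 rose, 3 laminins fell and 2 rose, and 3 of the 4 nidogen and proteoglycan genes rose.

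**Figure D2:**
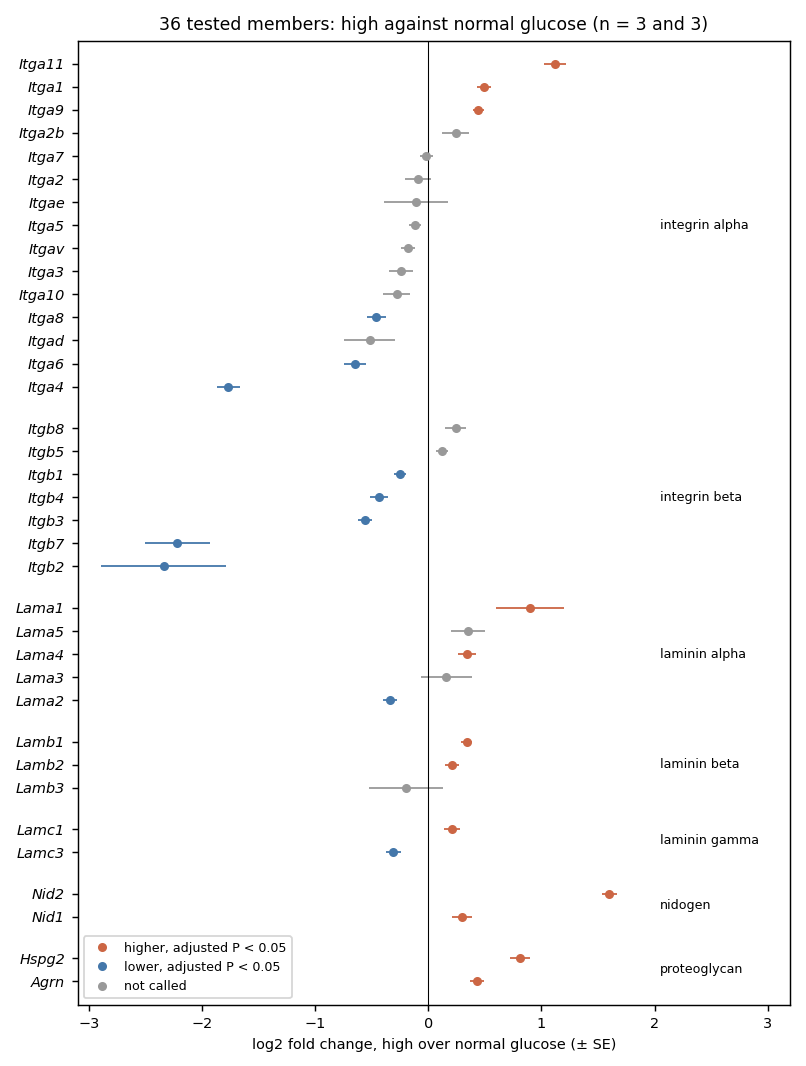
Log2 fold change of high over normal glucose ± SE from edgeR's quasi-likelihood test for 36 tested members, ordered within families, with 3 cultures per group. Itga11, Nid2 and Hspg2 lie farthest to the right among abundant genes, and Itga4, Itgb7 and Itgb2 farthest to the left.

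Promoter windows from RefSeq, on GRCm38.p6, were on hand for 26 of the 41 members. They are shown for the 4 members that changed by at least 0.8 on the log2 scale, had a mean above 1 normalized CPM in normal glucose and have a window, since these carry the largest differences. Each line gives 200 bases on the strand of the gene, from 250 to 51 bases before its start, at chr9:62677605-62677804 (plus), chr4:137468553-137468752 (plus), chr2:79255176-79255375 (plus) and chr15:102231986-102232185 (minus). Capitals mark the letters GGGCGG (GC box) on either strand, the only one of 5 motifs searched that these windows held.
Itga11: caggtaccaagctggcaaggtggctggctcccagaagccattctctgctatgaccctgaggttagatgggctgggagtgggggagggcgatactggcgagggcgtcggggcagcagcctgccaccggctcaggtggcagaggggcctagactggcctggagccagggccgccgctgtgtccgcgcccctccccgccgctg
Hspg2: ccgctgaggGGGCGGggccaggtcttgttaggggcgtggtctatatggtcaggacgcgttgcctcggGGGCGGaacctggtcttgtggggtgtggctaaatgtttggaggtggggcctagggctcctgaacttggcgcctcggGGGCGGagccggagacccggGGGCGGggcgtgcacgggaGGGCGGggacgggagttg
Itga4: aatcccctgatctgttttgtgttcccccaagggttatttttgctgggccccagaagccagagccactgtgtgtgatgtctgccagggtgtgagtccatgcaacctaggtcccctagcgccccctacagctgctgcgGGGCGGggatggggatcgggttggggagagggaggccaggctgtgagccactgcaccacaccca
Itgb7: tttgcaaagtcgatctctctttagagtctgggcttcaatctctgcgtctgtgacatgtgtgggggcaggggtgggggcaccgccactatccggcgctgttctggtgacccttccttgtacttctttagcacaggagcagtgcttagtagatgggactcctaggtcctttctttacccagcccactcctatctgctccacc

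The Hspg2 window held 5 GC boxes and that of Itga4 held 1, while those of Itga11 and Itgb7 held none. GC boxes were present in windows of 4 of 8 members called higher, 2 of 5 called lower and 4 of 10 not called. Of the 32851 windows of all genes, 24.6% held a GC box. That share is per window, whereas a member with several windows was counted once. Other letters searched on both strands were CACGTG (E-box), TGANTCA (AP-1 site), TAAACA (forkhead site) and CCGGAA (ETS site), which 4.34%, 5.57%, 10.3% and 8.03% of all windows held. The first 3 were found in no window of a called member, and CCGGAA in that of 1 member called higher, Nid1. A match of letters is a description of the sequence and shows no binding.

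The largest rise was that of Nid2, which encodes nidogen-2, one of the linkers between laminin and type IV collagen. Nid2 (ENSMUSG00000021806) lies at 19751265 to 19811787 on chromosome 14 (GRCm38, plus strand). It had 294, 329.5 and 342 normalized CPM with normal glucose, against 990.3, 948 and 979 with high glucose. All high glucose cultures were thus far above all normal glucose cultures, and the log2 fold change was 1.60 (standard error, SE, 0.064, adjusted P = 7.6e-08 by edgeR). Of the 3212 genes called higher, 128 rose by more. It shares 437 exonic bases at its 3′ end with Rtraf on the opposite strand, and no source says that strand was used in counting. Rtraf had 8727 to 9646 counts with normal glucose, against 7679 to 8789 with high glucose. Nid1, the other nidogen, had 1118, 1441 and 1413 normalized CPM with normal glucose, against 1644, 1592 and 1637 with high glucose. The groups did not overlap, but the rise of 0.30 on the log2 scale (adjusted P = 0.0258 from the same test) was lost without high glucose replicate 1, 2 or 3 (adjusted P = 0.101, 0.0741 and 0.0954). It was also lost under library size scaling (log2 fold change 0.18, adjusted P = 0.135).

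Since the nidogens share a role, their balance was compared within each culture. Nid2 made up 26.1%, 23.5% and 24.5% of the 2 nidogens per kb of exon with normal glucose, against 44.7%, 44.4% and 44.5% with high glucose. Per length, nidogen-1 transcripts therefore outnumbered those of nidogen-2 in every culture, by less in high glucose. The log2 ratio of Nid1 to Nid2 differed by -1.29 between the groups (P = 0.1 in a two-sided exact permutation test, the smallest value that 3 samples against 3 allow, and 0.143 after adjustment over the 10 ratios compared here). A ratio within a culture does not depend on the scaling between libraries.

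Both proteoglycan genes rose. Hspg2 (ENSMUSG00000028763), on the plus strand of chromosome 4 from 137468769 to 137570630, encodes perlecan, a large proteoglycan that anchors growth factors in vascular basement membranes. Its normalized CPM were 470.4, 559 and 607 with normal glucose, against 1028, 952 and 892 with high glucose. Without any overlap between the groups, this was a log2 fold change of 0.81 (SE 0.090, adjusted P = 7.7e-05 by edgeR). The value was 0.57 after the dependence on GC content and exon length had been taken out per library, still called with an adjusted P value of at most 9.6e-04 in every alternative fit. Agrn (ENSMUSG00000041936), on the minus strand of the same chromosome from 156165290 to 156197488, encodes agrin, which clusters acetylcholine receptors at the neuromuscular junction and is also made by non-neuronal cells. It had 142, 154 and 164 normalized CPM with normal glucose, against 216, 200 and 202 with high glucose. Again every high glucose culture was above every normal glucose culture, with a log2 fold change of 0.43 (adjusted P = 5.4e-04). The log2 ratio of Hspg2 to Agrn within a culture was 1.82 ± 0.0873 with normal glucose, against 2.21 ± 0.062 with high glucose (SD, n = 3; two-sided exact permutation P = 0.1, adjusted 0.143).

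Of the laminins, Lama4, Lamb1 and Lamc1 were all higher in high glucose, by 1.27-fold, 1.26-fold and 1.16-fold. Lama4 (ENSMUSG00000019846), on the plus strand of chromosome 10 from 38965515 to 39110188, had 337, 421 and 416 normalized CPM with normal glucose, against 503, 488 and 498 with high glucose. Normal glucose replicate 1 was the lowest and lay apart from the other 2. The log2 fold change was 0.34 (SE 0.080, adjusted P = 0.00837 from the same test). Lamb1 (ENSMUSG00000002900), on the plus strand of chromosome 12 from 31265234 to 31329644, rose from 740, 758 and 778 to 978, 929.9 and 964 normalized CPM. This was also a log2 fold change of 0.34 (SE 0.050, adjusted P = 5.6e-04), with no overlap between the groups. With GC content and exon length accounted for, edgeR still called Lama4 at 0.18 and Lamb1 at 0.2 (adjusted P = 0.0129 and 0.00493). With library size scaling it gave 0.23 for Lama4 and 0.22 for Lamb1 (adjusted P = 0.0498 and 0.00575). Lamc1, the gamma chain found in most laminins, had 365, 431 and 427 normalized CPM with normal glucose, against 485, 460.2 and 467 with high glucose. Its rise of 0.21 on the log2 scale (adjusted P = 0.0405) was lost in every fit that left out a library except the one without normal glucose replicate 2, and under library size scaling (log2 fold change 0.094, adjusted P = 0.317). Lamb2, a beta chain known from synapses and the kidney glomerulus, went from 238, 243 and 256 to 307, 264 and 283 normalized CPM. It too rose by 0.21 (adjusted P = 0.0275), a call that held without high glucose replicate 2 and was lost without any other library (adjusted P between 0.0505 and 0.188) and under library size scaling (log2 fold change 0.0996, adjusted P = 0.258).

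Lama2 and Lamc3 moved the opposite way, and Lama5 was not called. Lama2, the alpha chain of the laminins of muscle and peripheral nerve, had 42.8, 48.5 and 49.2 normalized CPM with normal glucose, against 37.8, 36.9 and 35.9 with high glucose. It fell by 0.34 on the log2 scale (adjusted P = 0.00212), without overlap. Lamc3 fell by 0.31, from 22.4 ± 1.28 to 18.1 ± 0.983 normalized CPM (SD, n = 3; adjusted P = 0.00483 by edgeR). Lama5 had 1.65, 2.31 and 1.95 normalized CPM with normal glucose, against 2.9, 2.12 and 2.52 with high glucose, which overlap (log2 fold change 0.35, adjusted P = 0.106).

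Lama3, Lamb3 and Lama1 were close to the detection limit. Lama3 had 35 to 52 counts per culture with normal glucose, against 42 to 49 with high glucose, and Lamb3 18 to 40 and 20 to 24. Neither was called (adjusted P = 0.640 and 0.677 from the same test). Lama1, the alpha chain of embryonic basement membranes, had 11, 14 and 17 counts with normal glucose, against 26, 27 and 25 with high glucose. Its log2 fold change of 0.90 (SE 0.301, adjusted P = 0.0443) lost the threshold in all 6 fits that left out a library and with DESeq2 (adjusted P = 0.194).

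Within the laminin alpha chains, Lama4 made up 90.9%, 91.6% and 91.4% of the level per kb with normal glucose, against 94.1%, 94.2% and 94.4% with high glucose. This difference of 2.9 percentage points exceeded the spread within either group (two-sided exact permutation P = 0.1, the smallest possible), and Lama2 took up the difference, going from 8.1% ± 0.376 to 5.17% ± 0.127 (SD, n = 3). Among gamma chains, Lamc1 went from 91.3% ± 0.817 to 94% ± 0.13. The log2 ratio of Lama4 to Lama5 was 7.64 in both groups, with SDs of 0.115 and 0.207. Lama4 and Lamc1 thus made up most of their families in all 6 cultures, more so in high glucose.

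**Figure D3:**
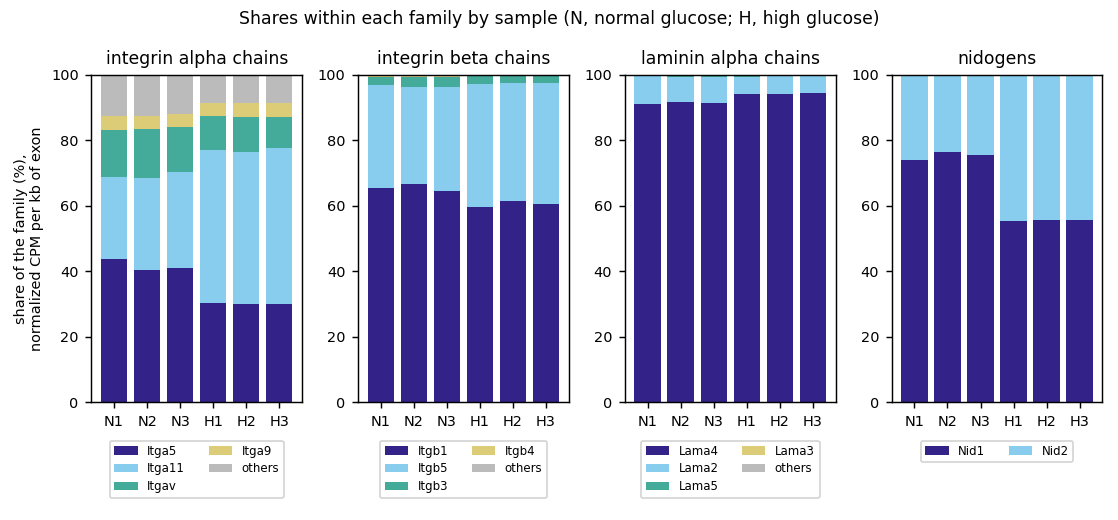
Share of each chain within its family per culture, in percent of the summed normalized CPM per kb of exon (N1 to N3 normal glucose, H1 to H3 high glucose), with the 4 highest chains shown singly. The Itga11 share of integrin alpha chains lies between 24.8% and 29.3% with normal glucose and between 46.4% and 47.5% with high glucose, and the Nid2 share of nidogens shifts likewise.

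Integrin alpha chains fall into groups by ligand, and of the 3 that rose, Itga11 and Itga1 are collagen receptors. Itga11 (ENSMUSG00000032243), on the plus strand of chromosome 9 from 62677826 to 62783982, pairs with beta1 as a receptor for fibrillar collagen and is known from fibroblasts. Its normalized CPM were 150.2, 190.1 and 204 with normal glucose, against 402, 381 and 402 with high glucose. The high glucose cultures were close to each other and well above the others, with a log2 fold change of 1.12 (SE 0.097, adjusted P = 1.4e-05 by edgeR). Itga1 (ENSMUSG00000042284), which prefers type IV collagen, had 36.4, 42 and 37.7 normalized CPM with normal glucose, against 53.6, 54.5 and 55.4 with high glucose. It rose by 0.49 (adjusted P = 1.7e-04), and by 0.31 once GC content and exon length were accounted for. The other 2 collagen receptors, Itga2 and Itga10, had log2 fold changes of -0.091 and -0.28 and were not called (adjusted P = 0.579 and 0.107). Gm42957, on the same strand, overlaps 33.5% of the exon bases of Itga10. Beside these rises stands that of the fibroblast marker list, whose summed level, mostly Col1a1, Col1a2 and Col3a1, did not overlap between the groups. The part of that list in the rises of Itga11 and Itga1 was not tested.

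Itga9, which pairs with beta1 and binds tenascin-C and osteopontin, rose as well, from 39.5, 39.4 and 40.8 to 53.2, 54.7 and 54.5 normalized CPM. The log2 fold change was 0.44 (SE 0.048, adjusted P = 7.2e-05), and the groups did not overlap.

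Itga4 fell furthest among the alpha chains. Itga4 (ENSMUSG00000027009), on the plus strand of chromosome 2 from 79255426 to 79333123, encodes the chain that binds VCAM-1 and fibronectin with beta1 and MAdCAM-1 with beta7. It had 18.8, 24.9 and 21.7 normalized CPM with normal glucose, against 6.77, 6.28 and 6.12 with high glucose. Every high glucose culture was far below every normal glucose culture, and the log2 fold change was -1.77 (SE 0.101, adjusted P = 7.8e-07 from the same test). A larger fall was found for 102 of the 2757 genes called lower. It shares 1124 exonic bases with Cerkl on the opposite strand, which had 91 to 142 counts per culture.

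Itgb7, a partner of alpha4, and Itgb2 also fell, from low levels. Itgb7 had 1.43, 0.98 and 1.55 normalized CPM with normal glucose, against 0.423, 0.181 and 0.23 with high glucose. This was a log2 fold change of -2.22 (SE 0.289, adjusted P = 2.3e-04), called in all 6 fits that left out a library. Itgb2, the beta chain of the leukocyte integrins, had 47, 81 and 70 counts with normal glucose, against 23, 0 and 16 with high glucose, with a log2 fold change of -2.34 (SE 0.553, adjusted P = 0.00903). DESeq2 did not call it (adjusted P = 0.112). The leukocyte alpha chains were at the edge of detection, with 23 to 38 counts per culture for Itgad and 18 to 24 for Itgae, neither called (adjusted P = 0.111 and 0.799). Itgal, Itgam and Itgax did not pass the filter, with at most 22, 11 and 13 counts in a culture, and Itgam had none in the high glucose cultures, while 68.7% of its exons overlap Gm49368. The fourth untested member, Itgb6 of epithelia, had 2 to 12 counts. Of 22 leukocyte markers, 7 had no counts in any culture, among them Tyrobp and Cd3e, and Ptprc (CD45) had 16 counts in normal glucose replicate 1 and 0 in the other 5. The summed level of that list was 40.3 to 41.7 CPM with normal glucose, against 33.3 to 33.5 with high glucose. Only 9 of its members were tested, of which 77.8% were called, against 31.4% of all tested genes. Lower were 6 members, led by Cd53 at -2.32 and S100a8 at -1.50, and Cd14 was higher by 1.16. The part of that list in the falls of Itgb2, Itgb7 and Itga4 was not tested.

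Of the laminin receptor chains, Itga6 and Itgb4 fell, and Itga3 and Itga7 were not called in the reported fit. Itga6, which binds laminin with beta1 or beta4, had 7.64, 9.09 and 8.3 normalized CPM with normal glucose, against 5.29, 5.75 and 4.93 with high glucose. It fell by 0.65 on the log2 scale (SE 0.095, adjusted P = 5.1e-04). Itgb4, the hemidesmosome chain that pairs only with alpha6, fell by 0.44, from 8.96, 10.1 and 9.86 to 7.5, 6.75 and 7.02 normalized CPM (adjusted P = 0.00204). Both were non-overlapping between the groups, while their log2 ratio overlapped (difference -0.21, two-sided exact permutation P = 0.3, adjusted 0.333). Itga3, another laminin receptor, had a log2 fold change of -0.24 and Itga7, known from muscle, one of -0.018 (adjusted P = 0.116 and 0.845). With GC content and exon length accounted for, Itga3 was called at -0.32 and Itga7 at -0.14 (adjusted P = 0.023 and 0.0213), and Itga3 also with library size scaling (-0.36, adjusted P = 0.0275). Of 14 keratinocyte markers, 6 were tested, and 50% of these were called, against 31.4% of all tested genes. The list summed to 6.85 to 7.68 CPM with normal glucose, against 6.27 to 6.86 with high glucose. Perp fell by 1.47 and Sfn by 0.49, whereas Krt5 rose from 2 counts in each normal glucose culture to 23, 12 and 14, and Krt14 had 2, 0 and 0 counts with normal glucose, against 35, 9 and 31 with high glucose. The sum of 10 Schwann cell markers was 552 to 564 CPM with normal glucose, against 639 to 665 with high glucose. All 10 were tested, and 5 fell and 2 rose, or 70% against 31.4% of all tested genes. Sox10 was lower by 0.36 and S100b by 0.90. Pmp22 rose by 0.21, from 391 ± 11.9 to 451 ± 12.9 normalized CPM, and Ngfr by 0.42, from 129.7 ± 7.48 to 173 ± 3.07 (SD, n = 3). The call of Sox10 was lost without normal glucose replicate 3 or high glucose replicate 1 or 2 (adjusted P = 0.0764, 0.0649 and 0.0637), that of Pmp22 without normal glucose replicate 3 or high glucose replicate 2 or 3 (0.0513, 0.0662 and 0.0856) and that of Perp without normal glucose replicate 3 (0.0518). The part of these cell types in the values of Itga6 and Itgb4 was not tested.

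Among the receptors for RGD sequences, Itgb3 and Itga8 fell, and Itga5, Itgav and Itga2b did not pass the threshold. Itgb3 (ENSMUSG00000020689), on the plus strand of chromosome 11 from 104608000 to 104670476, is the beta chain of the vitronectin receptor alphav beta3 of angiogenic vessels and of the platelet fibrinogen receptor. It had 64.3, 69.2 and 68.6 normalized CPM with normal glucose, against 48.8, 43.7 and 44.5 with high glucose. The fall of 0.56 on the log2 scale (SE 0.060, adjusted P = 5.9e-05 by edgeR) left no overlap. Itgb5 had 453, 419 and 447 normalized CPM with normal glucose, against 477, 492 and 466 with high glucose (log2 fold change 0.12, adjusted P = 0.107). Within each culture the log2 ratio of Itgb3 to Itgb5 was -2.71 ± 0.111 with normal glucose, against -3.39 ± 0.101 with high glucose (SD, n = 3; two-sided exact permutation P = 0.1, adjusted 0.143). The balance of the 2 vitronectin receptor beta chains therefore differed by more than its spread.

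Itgav, their shared partner, had 185, 216 and 200 normalized CPM with normal glucose, against 182, 179.7 and 169 with high glucose. The log2 fold change of -0.18 just missed the threshold (adjusted P = 0.0581), and 9 of the 18 alternative fits called it, among them the one without normal glucose replicate 1 (-0.25, adjusted P = 0.00384). Itga5, with 255, 265 and 275 normalized CPM with normal glucose, against 251, 236 and 244 with high glucose, stood at -0.12 on the log2 scale (adjusted P = 0.107) and was called lower in 5 of the alternatives. Without normal glucose replicate 1 it was called at -0.17 (adjusted P = 0.0209), and so were Itga10 at -0.38 and Itga2b at 0.35 (adjusted P = 0.0254 and 0.0206). Itga8, the nephronectin receptor chain, fell by 0.46, from 24.9, 32.3 and 30.5 to 21.1, 21 and 21.7 normalized CPM (adjusted P = 0.0026). E030013I19Rik, which overlaps it on the opposite strand, had 44 to 55 counts with normal glucose, against 14 to 23 with high glucose. Itga2b, the platelet alpha chain, had 6.39 ± 0.956 and 7.54 ± 0.78 normalized CPM (SD, n = 3; adjusted P = 0.150 from edgeR). Of 10 platelet markers, 3 were tested, and 33.3% of these were called, near the 31.4% of all tested genes. Ppbp fell by 0.65, a call lost without normal glucose replicate 3 or high glucose replicate 2 or 3 (adjusted P = 0.0696, 0.0618 and 0.101). Pf4 had at most 7 counts in a culture. The list summed to 1.84 to 3.57 CPM with normal glucose, against 1.18 to 1.69 with high glucose. Itgb8, which activates latent TGF-beta with alphav, had 7.93, 9.53 and 8.85 normalized CPM with normal glucose, against 10.2, 11.3 and 9.7 with high glucose (adjusted P = 0.0643), and without normal glucose replicate 2 it was called (log2 fold change 0.30, adjusted P = 0.0400).

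Itgb1 (ENSMUSG00000025809), on the plus strand of chromosome 8 from 128685654 to 128733200, is the common partner of most alpha chains here. It had 1088, 1078 and 1041 normalized CPM with normal glucose, against 872, 956 and 875 with high glucose. The groups did not overlap, and the fall of 0.25 on the log2 scale (SE 0.055, adjusted P = 0.00673 from the same test) was called in every alternative fit. Its share of the beta chains per kb went from 65.5% ± 1.07 to 60.4% ± 0.843, and that of Itgb5 from 30.9% ± 1.1 to 36.9% ± 0.62 (SD, n = 3; two-sided exact permutation P = 0.1 for both). Over all alpha chains, the 4 collagen receptors went from 29.8% ± 2.28 to 49.3% ± 0.543 of the level per kb and the 4 RGD receptors from 60.2% ± 1.92 to 42.8% ± 0.49, given without a test because this grouping was made after the values were known. Itga11 alone went from 27.3% ± 2.3 to 46.9% ± 0.532 and Itga5 from 41.8% ± 1.74 to 30.1% ± 0.26. In high glucose Itga11 was thus the highest alpha chain per length in each culture, where Itga5 had been in normal glucose.

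**Figure D4:**
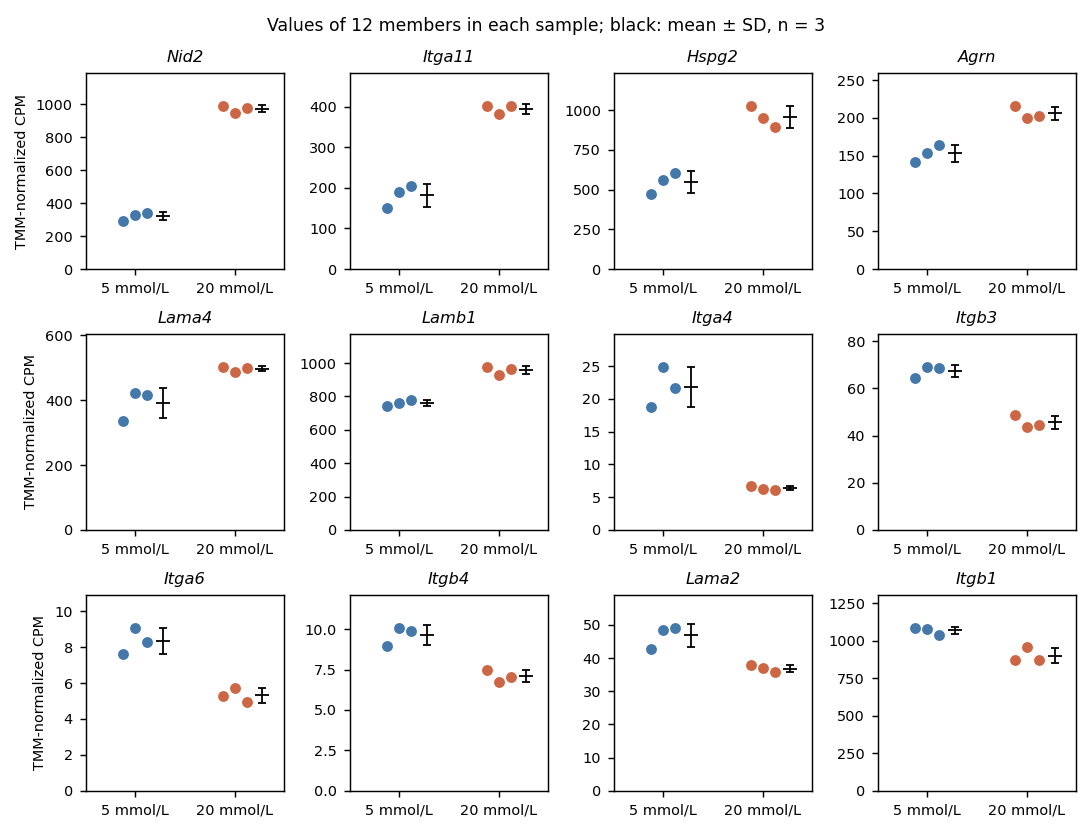
TMM-normalized CPM of 12 members in each culture (points) with mean ± SD (black, n = 3), each panel on its own linear axis from 0. Nid2, Itga11, Hspg2, Agrn, Lama4 and Lamb1 are higher in each high glucose culture than in any normal glucose culture, and Itga4, Itgb3, Itga6, Itgb4, Lama2 and Itgb1 are lower.

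Across the 37 tested members, normal and high glucose cultures were fully separated for 14 higher and 15 lower genes, where 46.4% of all tested genes did not overlap. Of the 23 called members, 9 (39.1%) changed by at least 1.5-fold, among them Nid2, Itga11, Hspg2 and Lama1 of the higher and Itgb2, Itgb7, Itga4 and Itga6 of the lower. Among all called genes the corresponding share was 34.5%, and among all tested genes, called or not, 10.8%.

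Genes that act beside the members were taken from lists written from general knowledge, with earlier results of these data known. Of 28 tested basement membrane genes outside the rule, 13 rose and 6 fell, or 67.9% against 31.4% of all tested genes. The median log2 fold change was 0.19 against 0.0062 over all tested genes. Under library size scaling 7 rose, and without high glucose replicate 3 it was 8. Pxdn, which cross-links type IV collagen, rose by 0.77 on the log2 scale, from 142 ± 14.1 to 242 ± 5.53 normalized CPM (SD, n = 3). The minor type IV collagen chains Col4a3 and Col4a4 rose by 1.24 and 1.06 from levels under 1 CPM. Egflam, which encodes pikachurin, fell by 0.99 and Col7a1, the anchoring fibril collagen, by 0.93. Tinag fell by 0.85 from 0.327 ± 0.0363 normalized CPM. Each of these was called by edgeR's quasi-likelihood test, with adjusted P values of at most 0.0266. The call of Tinag was lost without normal glucose replicate 1 or high glucose replicate 1 or 3 (adjusted P = 0.0615, 0.063 and 0.103).

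Among 29 tested integrin ligands and counter-receptors, 10 rose and 7 fell, or 58.6% against 31.4% of all tested genes. Their median log2 fold change was 0.065. Vtn, which encodes vitronectin, the ligand of alphav beta3 and alphav beta5, rose by 2.59 on the log2 scale, from 0.859 ± 0.0348 to 5.18 ± 0.0957 normalized CPM (SD, n = 3; adjusted P = 5.7e-08). Col3a1, a fibrillar collagen, rose by 1.39 and Ccn3 by 1.17. Spp1, which encodes osteopontin, fell by 0.73, from 4224 ± 139.8 to 2555 ± 55.4 normalized CPM, and F11r and Ccn2 fell by 0.58 and 0.51.

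Of 20 tested genes in a list of receptors other than integrins and of proteins associated with them, 10 rose and 7 fell. This was 85% against 31.4% of all tested genes. Besides receptors, the list holds tetraspanins such as Cd151, Cd9 and Cd81, sarcoglycans such as Sgcd, and Dmd and Utrn. The median log2 fold change was 0.15, but 4 rose under library size scaling and 5 without high glucose replicate 1, 2 or 3. Lrp4 and Musk, which form the receptor for agrin, rose by 1.27 and 0.75, Lrp4 from 18.9 ± 2.06 to 45.5 ± 1.05 normalized CPM (SD, n = 3; adjusted P = 1.1e-06). Musk went from 1.62 ± 0.203 to 2.72 ± 0.109 normalized CPM (SD, n = 3). Transcripts of Agrn, Lrp4 and Musk thus all rose, those of Musk from a low level. Utrn, which links dystroglycan to actin, rose by 0.46, whereas Dmd, its relative, fell by 0.61 and Sgcd by 0.57. Bcam, a receptor for laminin alpha5, fell by 0.92 from 2.68 ± 0.121 normalized CPM. Of the 17 tested genes that build the laminin-binding glycan of dystroglycan, 17.6% were called, fewer than the 31.4% of all tested genes. B4gat1 fell by 0.48 while Pomgnt2 and Pomt2 rose by 0.32 and 0.23. The call of Pomt2 was lost without high glucose replicate 1 or 3 (adjusted P = 0.0704 and 0.0619).

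The adhesion plaque genes act inside the cell. Of 50 tested, 8 rose and 8 fell, or 32%, close to the 31.4% of all tested genes, and none reached 1.5-fold. The median log2 fold change was 0.038. Ptk2b, a focal adhesion kinase relative, and Parvb fell by 0.53 each. Tns2, Lpp and Flna rose by 0.38, 0.38 and 0.32, Flna not without high glucose replicate 1 or 3 (adjusted P = 0.063 and 0.0521). Library size scaling changed this split to 2 higher and 14 lower. Without high glucose replicate 1 it was 3 higher and 5 lower, and without high glucose replicate 3 it was 2 higher.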

How the data were processed

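The authors trimmed reads with Trimmomatic, aligned them to GRCm38 (mm10) with HISAT2, enumerated reads per gene with StringTie, and deposited unnormalized counts for 6 samples. Versions, annotation release and strand setting are not given in the sources used here. The paper's methods name HiSeq sequencing, whereas the labels name DNBSeq. Symbols were found for 55141 of 55487 identifiers, and the rest held 0.034% of the counts. Positions and exon lengths came from GENCODE for GRCm38.

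For the tests, edgeR 4.0.16 was run in R 4.3.3 (filterByExpr with a minimum count of 10 and a minimum total of 15, TMM, quasi-likelihood test, Benjamini-Hochberg adjustment over all 19015 tested genes, threshold 0.05), and DESeq2 1.42.0 and mgcv 1.9.3 served alternatives. Standard errors were taken from the test statistic. The fit was tested on simulated data. Values of 2 were nearly as frequent as values of 1 (9280 against 10842 entries), so both reads of a pair may have been counted, and halved counts were tried. A floor of 3 counts was 0.0211 to 0.0258 CPM, which covers counting error only. Replicates of a group differed beyond sampling noise (chi-square per degree of freedom at least 9.64).

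Members and lists were chosen with earlier results of these data known. The rule was to name every member and, from each list, up to 3 called genes with the largest change in each direction, besides Pecam1, Cdh5, Ptprc, Krt5, Krt14, Pf4, Sox10 and overlapping genes. Some genes are not reported here.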

Additional observations from a re-analysis of the deposited data

How the results depend on the processing

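Of the 37 tested members, 25 stayed on the same side of the threshold in each of the 18 alternative fits that could be made for them, and no called member reversed. The other 12 lost or gained a call, most often Lama1, Lamc1, Lamb2 and Itgav. Members called lower and higher numbered 11 and 12, and between 11 and 14 and between 8 and 11 when each library was left out in turn. A minimum fold of 1.5 left 5 lower and 4 higher, and an adjusted p under 0.01 left 11 and 8. Taking out the dependence on GC content and exon length per library gave 16 and 9 (14 and 9 with the replicate block), and the cause was not tested. Same-numbered cultures did not deviate together (correlations across genes of -0.0248, 0.00377 and 0.0127). These values show no shared deviation and cannot tell whether same-numbered cultures came from a common isolation. The fit with the replicate number as a block gave 11 lower and 10 higher members, Lama1 and Lamc1 being lost (adjusted p = 0.0792 and 0.0681). The block left the differences in the Lama4 and Itgb1 shares at 2.9 and -5.06 percentage points. Leaving out each library in turn gave 2.7 to 3.04 and -5.57 to -4.51 points. The Lama4 difference was 2.54 points with the length of the longest transcript and 3.75 without length correction. Depth limits what can be said of Itgad, Itgae, Itgal, Itgam, Itgax, Itgb6, Lama1, Lama3 and Lamb3, with at most 52 counts in a culture. It also limits Itgb2, with 23, 0 and 16 counts in the high glucose cultures.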
